A study of Mus musculus with 24 samples.

Results

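The genes described here are 38 protein-coding genes of nucleolar ribosome biogenesis, chosen by symbol from a table of 56748 mouse genes. They were grouped by role: RNA polymerase I and its partners, box C/D and H/ACA snoRNA-guided particles, assembly of the small subunit, assembly of the large subunit, abundant nucleolar proteins, and polyamine synthesis. The last group goes against the name of the set, because Srm (spermidine synthase) and Odc1 (ornithine decarboxylase) are enzymes that make polyamines and are not nucleolar assembly factors. Of the 38 genes, 36 passed the filter on low counts and were tested. Pno1, a small-subunit assembly factor, was listed at 0 in each of the 24 libraries, and Rrs1, a large-subunit assembly factor, ranged from 0 to 3.74 CPM (counts scaled to a common library size), so neither was tested. A 0 in every library may mean that Pno1 was not counted, and does not show that it is silent.

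RNA was sequenced from stem and progenitor cells sorted from the bone marrow of mice although their tissue is entered as blood, and 3 libraries were made for each of 8 groups. The groups are WT HSC, WT MPP1, WT MPP2 and WT MPP4, and KO HSC, KO MPP1, KO MPP2 and KO MPP4. Tamoxifen is the treatment given for WT and KO libraries alike, so both genotypes carry it. The labels name neither the gene that was knocked out nor the Cre driver, and they give no age, strain or dose. Separate animals are not stated for the 3 replicates, so p-values measure only their spread, which may be technical. The word KO below means the libraries labelled KO.

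Ribosome biogenesis starts in the nucleolus, where RNA polymerase I transcribes the ribosomal RNA precursor. Guide-RNA particles then modify that precursor, and large sets of assembly factors cut and fold it into the small and large subunits. Myc is a transcription factor widely known to drive genes of this programme, and stem cells are known for a low rate of protein synthesis compared with the progenitors below them.

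Myc binds, with its partner Max, an E-box whose core letters are CACGTG. The motif is its own reverse complement, so a single search covers both strands. RefSeq promoter windows of 300 bases (250 before and 50 after the start site, mouse build GRCm38.p6) were matched by symbol for 31 of the 38 genes, and 8 of those 31 (25.8%) held the motif in a window. It was present for 16.5% of the other ribosome biogenesis genes that were matched, for 11.9% of matched genes with at least 20 CPM on average, and for 8.09% of all matched genes of the table. Median GC content of the windows was 59.8% for the members, 61% for the genes of at least 20 CPM and 52.7% for all genes. The 6 members that held the motif and were higher in KO than in WT HSC in the counts as deposited are shown, so that the motif can be read beside their values below, 30 bases each, 5′ to 3′ on the gene's strand, with the motif in capitals.
Utp4: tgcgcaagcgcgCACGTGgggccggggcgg
Wdr43: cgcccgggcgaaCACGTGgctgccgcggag
Utp20: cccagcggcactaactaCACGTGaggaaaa
Pes1: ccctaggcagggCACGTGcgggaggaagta
Nop2: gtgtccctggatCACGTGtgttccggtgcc
Mybbp1a: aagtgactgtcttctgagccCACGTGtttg
Counted from 0 at the annotated start site, the motif began at position 15 in Utp4, 17 in Wdr43, 37 in Utp20, 2 in Pes1, 40 in Mybbp1a and -60 in Nop2, so 5 of these 6 lie in the first transcribed bases. The Utp4 stretch is chr8:106893643-106893672 (plus strand), that of Utp20 is chr10:88826765-88826794 (minus strand) and that of Nop2 is chr6:125131811-125131840 (plus strand). Wdr43 lies at chr17:71616220-71616249, Pes1 at chr11:3963965-3963994 and Mybbp1a at chr11:72441347-72441376, each on the plus strand. Tsr1 and Pno1 held the motif as well. A match is a description of the letters and no evidence that Myc was bound. In HSC, 6 of 7 tested members with the motif were higher in KO, with a median log2 fold change of 0.85, and 17 of 23 without it, with a median of 1.05. After subtraction of an estimated background, described next, 2 of the 7 (Utp4 and Nop2) and 7 of the 23 were called, with medians of 0.62 and 0.65. The shown genes Wdr43 (0.03), Mybbp1a (0.06), Utp20 (0.42) and Pes1 (0.67) were then not called.

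Each library held between 2540511 and 3807003 counts, and replicates differed by more than sampling noise. The populations were checked against surface genes that define them in common sorting schemes. Flt3, a marker of MPP4, averaged 1140 ± 52.3 CPM (SD, n = 3) in WT libraries labelled MPP2 and 64.9 ± 14.2 CPM in those labelled MPP4. Slamf1, a marker of HSC and MPP2, averaged 7.86 ± 1.31 CPM under the label MPP2 and 41.1 ± 10.3 CPM under MPP4, so both genes go against these 2 labels, in WT as in KO. The names MPP2 and MPP4 below are labels only. Ddx6, the P-body helicase that general knowledge of this work gives as the deleted gene, had 154 to 319 counts in WT libraries and 194 to 308 in KO libraries. Which exons were deleted is not given in the sources used here, so this does not check the labels.

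Counts over olfactory and vomeronasal receptor genes, which these cells should not transcribe, gave each library an estimate of reads spread evenly over the genome. Scaled by gene length, that background came to 11.5 to 31.1% of counts in WT and 5.45 to 19% in KO libraries, and it was lower in KO in each population. In WT HSC it averaged 22.7 ± 1.68% (SD, n = 3) against 5.63 ± 0.191% in KO HSC. Over the members it made up a median of 9.53% of a gene's counts in WT HSC and 1.48% in KO HSC, with a highest value of 37.7% for Tsr1 in WT MPP4. This background moves with genotype, so counts of called members and of other called ribosome biogenesis genes are given below as deposited and after it was subtracted. Subtraction also lowered the share of all genes called in each comparison of KO with WT. It shifted fold changes broadly: in HSC the median log2 fold change of genes of at least 20 CPM went from 0.44 to 0.08. Npm1, with 0.436% background in WT HSC and 0.0616% in KO HSC, went from 1.14 to 0.59. A call lost after subtraction therefore does not measure background within that member's own counts. The TMM factors that scale library size to CPM were also lower in KO in each population. In HSC they were 1.07 to 1.1 in WT and 0.856 to 0.865 in KO. A lower factor gives a higher CPM at the same counts and total, so fold changes as deposited include this scaling. What makes up the shift was not tested.

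Per kilobase of exon, Npm1 (nucleophosmin, a histone and ribosome chaperone of the nucleolus) was the most abundant member, at a mean level of 303 CPM per kb over the 24 libraries. Noc2l followed at 46.2 CPM per kb, Srm at 35, Nop2 at 28.3, Ncl (nucleolin) at 25.4 and Tcof1 at 21.6. Among tested members Nip7 was lowest at 1.62 CPM per kb, with Tsr1 at 2.9 and Wdr12 at 3.87. Some of these levels are uncertain because whether counting used strand is not given in the sources used here: 32.3% of Tsr1 exon bases and 20.9% of Noc2l exon bases are shared with a gene on the other strand (Srr and Samd11), and 8% of Nop56 exon bases with small RNA genes on its own strand. In 23 of 36 tested members the lowest of the 8 group means was WT HSC. The highest was KO MPP2 in 16 members, KO HSC in 13, KO MPP4 in 3, KO MPP1 in 2 and WT MPP2 in 2 (Noc3l and Odc1).

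Myc itself was measured at 123, 134 and 90.6 CPM in the WT HSC libraries and at 540, 477 and 456 CPM in KO HSC. It was at 98.8, 98.1 and 111 CPM in WT MPP1 against 331, 324 and 315 CPM in KO MPP1. The KO libraries lay above every WT library of their own population here and in the remaining populations. Myc was at 240, 211 and 221 CPM in WT MPP2 against 460, 425 and 378 in KO MPP2, and at 151, 166 and 198 CPM in WT MPP4 against 294, 316 and 268 in KO MPP4. Its log2 fold change was 2.08 ± 0.12 (SE) in HSC, 1.66 ± 0.12 in MPP1, 0.91 ± 0.12 in MPP2 and 0.77 ± 0.12 in MPP4, with edgeR adjusted p of 1.66e-17, 8.78e-14, 2.75e-07 and 5.94e-06. After background subtraction it was 1.54 ± 0.13 in HSC, 1.33 ± 0.13 in MPP1 and 0.77 ± 0.12 in MPP2, each past the threshold, and 0.39 ± 0.12 in MPP4 with an adjusted p of 0.0584, which does not pass.

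**Figure D1:**
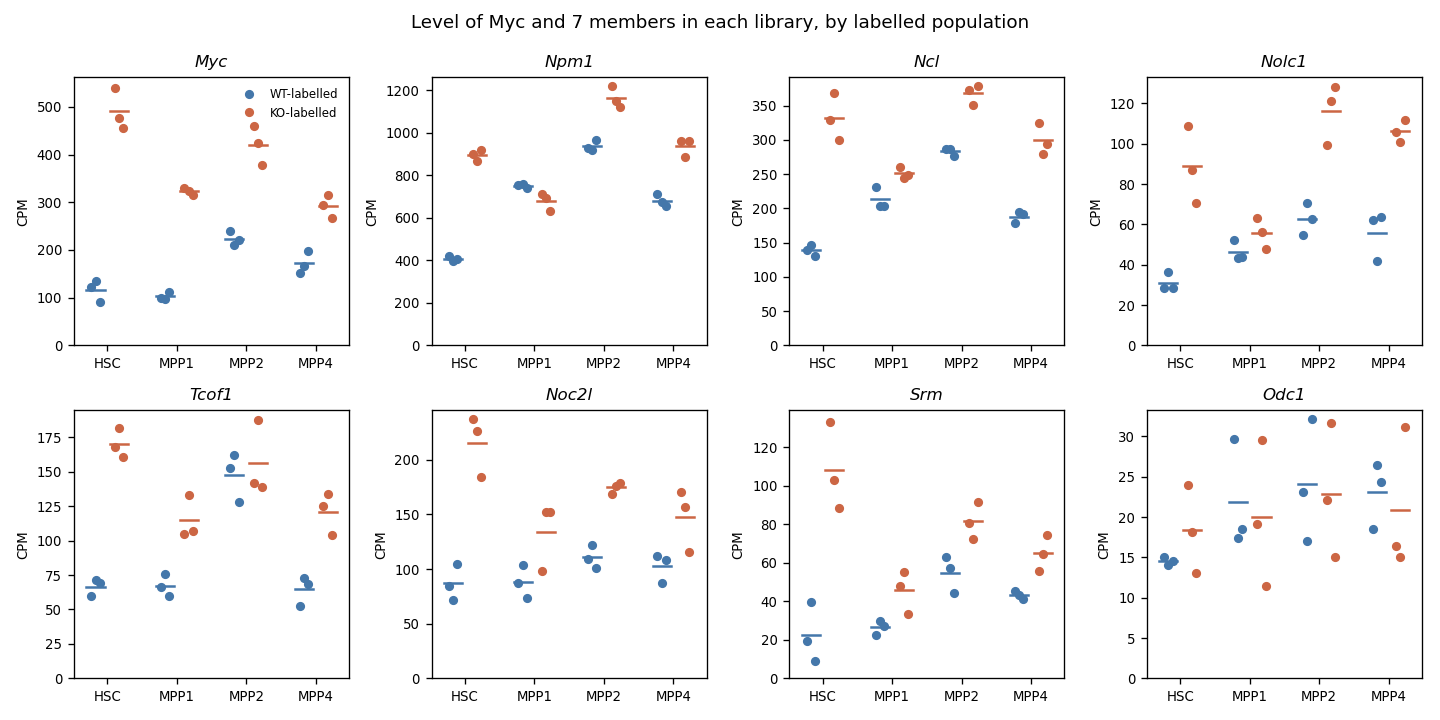
Level in CPM (y axis, from 0) of Myc and 7 members in each of the 24 libraries, by labelled population (x axis), with WT in blue and KO in orange; each point is a library and each bar the mean of 3. In HSC the KO points of Myc, Npm1, Ncl, Nolc1, Tcof1, Noc2l and Srm lie above every WT point, in MPP1 those of Npm1 lie below, and those of Odc1 overlap with WT in all 4 populations.

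In HSC the members were higher in KO with few exceptions: 28 of 36 tested members rose (77.8%) and none fell (edgeR, none at an unadjusted p below 0.05 either, and none by DESeq2). Of all 21964 genes tested 18.3% rose and 24.8% fell, and of the 8510 genes with at least 20 CPM on average, a class to which 33 of the members belong, 43.5% rose. The members' median log2 fold change was 1.03, against -0.31 over all genes and 0.44 over the genes of at least 20 CPM. In 30 of 36 members every KO library lay above every WT library, which was so for 23.1% of all genes and 50% of the genes of at least 20 CPM. In bulk libraries, a change in the mix of cells and a change in RNA per cell cannot be told apart.

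All 4 tested genes of the polymerase I group rose in KO HSC. Polr1a, the largest polymerase I subunit, was at 85.9, 85.1 and 78.3 CPM in WT and 160, 142 and 169 CPM in KO (log2 fold change 0.92 ± 0.17, adjusted p 2.62e-05). Tcof1, the treacle protein that links polymerase I transcription to rRNA modification, was at 59.8, 71.1 and 68.9 CPM against 168, 182 and 161 CPM (1.36 ± 0.16, 4.84e-09). Neither gene's groups overlap. Ubtf, the factor that holds ribosomal DNA open for transcription, rose by 1.15 ± 0.18 on the log2 scale and Polr1b, the second-largest subunit, by 0.85 ± 0.29, the latter with an adjusted p of 0.0172.

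Among snoRNA-guided particle genes, 5 of 6 rose. Nop58, a core protein of box C/D particles, was at 55.4, 53.6 and 59.7 CPM in WT and 107, 128 and 130 CPM in KO (1.12 ± 0.16, adjusted p 2.62e-07). Nolc1, a chaperone of these particles also called Nopp140, was at 28.5, 36.6 and 28.3 CPM against 109, 87.2 and 70.8 CPM (1.51 ± 0.2, 8.97e-08). The KO libraries of both stood apart from WT. Nop56, the partner of Nop58, changed by 1.45, Dkc1 (dyskerin, the pseudouridine synthase of H/ACA particles) by 1.12 and Fbl (fibrillarin, the rRNA methyltransferase) by 0.92 on the log2 scale, each past the threshold. Rrp9, a protein of the U3 particle, had a value of 0.38 ± 0.44 that did not pass.

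The small-subunit factors had the lowest share among the 4 nucleolar groups with 4 or more tested genes: 6 of 10 tested rose. Utp20, a component of the early small-subunit precursor, was at 88.1, 96.8 and 124 CPM in WT and 167, 187 and 186 CPM in KO (0.81 ± 0.16, adjusted p 0.000106). Wdr43, which acts in the same early complex as Utp4 and Utp15, was at 62.3, 53.3 and 63.7 CPM against 76.7, 83.8 and 83.7 CPM (0.45 ± 0.18, 0.0479), a smaller change with groups that also do not overlap. The call of Wdr43 was lost in each of the 6 fits that leave out a library, by DESeq2 (0.3, adjusted p 0.185) and after subtraction (0.03 ± 0.19). Utp4 rose by 1.41 ± 0.22 and Utp15 by 1.29 ± 0.32, both proteins of the complex that joins the nascent transcript first. Noc4l rose by 1.72 ± 0.44 and Bms1, a GTPase, by 0.64 ± 0.25. Heatr1 (0.36 ± 0.21), Nop14, a partner of Noc4l (0.66 ± 0.31), Tsr1, a late cytoplasmic factor (0.85 ± 0.51) and Rrp12 (0.44 ± 0.3) did not pass, with adjusted p between 0.0814 and 0.239.

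Of 11 tested large-subunit factors 9 rose. Noc2l, a partner of Noc3l on large-subunit precursors, was at 84.8, 71.6 and 105 CPM in WT HSC and 237, 226 and 184 CPM in KO HSC (1.31 ± 0.17, adjusted p 3.6e-08). Rrp1b, a nucleolar protein of large-subunit processing, was at 100, 71.4 and 80.9 CPM against 131, 144 and 126 CPM (0.67 ± 0.15, 0.000601). In both genes the lowest KO library exceeded the highest WT library. Nop2, an rRNA methyltransferase, rose by 1.53 ± 0.22, Gnl3 (nucleostemin) by 1.6 ± 0.3 and Ppan by 1.36 ± 0.29. The 3 proteins of the PeBoW complex, which processes the precursor of the large-subunit rRNA, rose by 1.01 ± 0.31 (Pes1), 1.17 ± 0.25 (Bop1) and 0.91 ± 0.27 (Wdr12). Nop16 rose by 1.05 ± 0.3. Noc3l, at -0.01 ± 0.39, and Nip7, at 0.97 ± 0.81, did not pass.

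All 3 abundant nucleolar proteins rose. Npm1 was at 418, 395 and 407 CPM in WT HSC and 902, 869 and 917 CPM in KO HSC, a 2.2-fold difference (1.14 ± 0.07, adjusted p 4.1e-17). Ncl was at 139, 146 and 131 CPM against 329, 368 and 299 CPM (1.26 ± 0.1, 4.14e-13). With Tcof1 these have the 3 smallest p-values among the members. Mybbp1a, a nucleolar Myb-binding protein, rose by 0.59 ± 0.18. Of the polyamine enzymes, Srm had the largest fold change of any member, from 19.4, 39.8 and 8.86 CPM in WT to 133, 103 and 88.5 CPM in KO (2.24 ± 0.29, adjusted p 3.29e-08). Odc1 was at 15, 14.1 and 14.6 CPM against 24, 18.2 and 13 CPM, with overlapping groups and an adjusted p of 0.5.

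After background subtraction 12 of 36 members remained higher in KO HSC, where 4.42% of all genes and 9.52% of the genes of at least 20 CPM were called higher. They are Ubtf, Tcof1, Nop56, Nop58, Nolc1, Utp4, Nop2, Noc2l, Gnl3, Ncl, Npm1 and Srm. The median log2 fold change was then 0.63, against -0.18 over all genes and 0.08 over the genes of at least 20 CPM. Npm1 changed by 0.59 ± 0.06 (adjusted p 8.32e-07) and Srm by 1.73 ± 0.33 (0.00111) on that scale. Leaving out each of the 6 libraries in turn, 23 of the 28 calls held in every fit, while Wdr43 was lost in all 6, Bms1 in 4, Polr1b and Fbl in 2 and Pes1 in 1. Other genes moved in HSC as well. Of 20 S-phase genes 17 were higher in KO, as were 14 of 20 G2/M genes. The summed megakaryocyte markers ranged from 193 to 231 CPM in WT and from 467 to 532 CPM in KO (1 of 3 tested markers rose), and the erythroid markers from 151 to 168 against 94.8 to 102 CPM (1 of 7 rose, 5 fell). Of the granulocyte and monocyte markers 3 of 7 fell, of the mature lymphocyte markers 2 of 8 and of the stromal and endothelial markers 4 of 8. Alas2 and Ms4a1, defining markers of red cell precursors and B cells, were at 0 in all libraries. The estimated background spreads over all genes, so such a 0 may be a gene that was not counted. It does not show that those cells were absent. The part of the marker and cell cycle genes in the members' change was not tested.

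**Figure D2:**
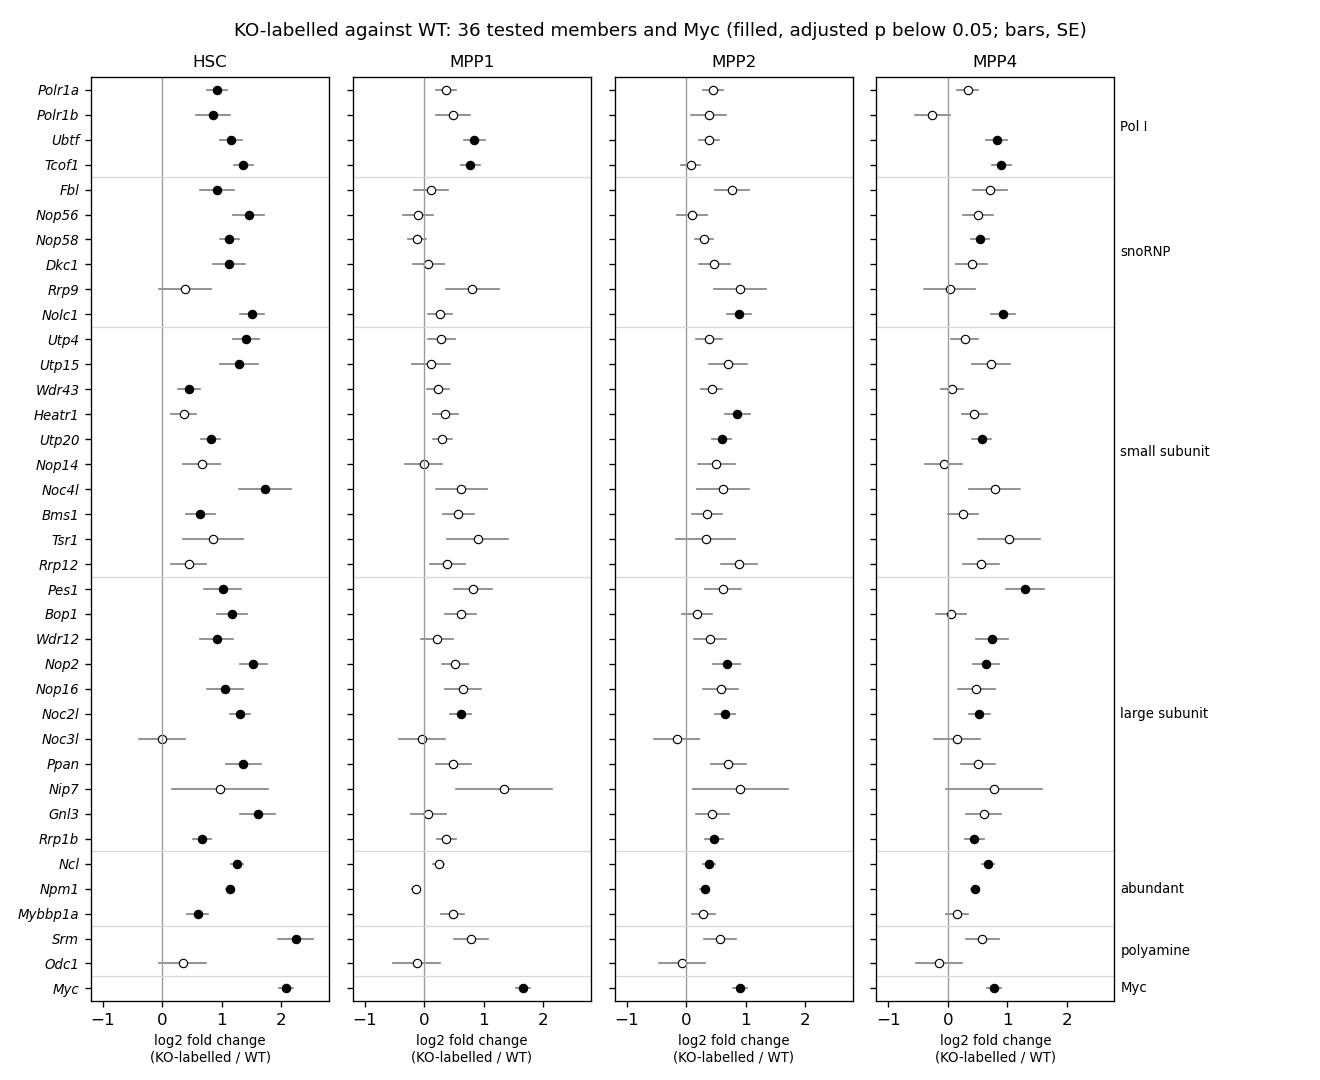
Log2 fold change of KO against WT (x axis) for the 36 tested members by role, with Myc in the last line, in the 4 labelled populations; filled points pass an edgeR adjusted p of 0.05, open points do not, and bars are the SE. The filled points number 28 members in HSC, 3 in MPP1, 8 in MPP2 and 12 in MPP4, while Myc is filled in all 4.

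MPP1 gave a different picture. Only 3 of 36 members rose in KO MPP1 (8.33%) and none fell by edgeR, where 8.71% of all genes and 21.5% of the genes of at least 20 CPM rose and 4.9% of all genes fell. The members' share is thus near the share over all genes and is not a result about them, although Myc rose 1.66 on the log2 scale there. The 3 were Tcof1, at 66.4, 75.6 and 59.6 CPM in WT against 105, 133 and 107 CPM in KO (0.77 ± 0.16, adjusted p 0.000479), Ubtf (0.84 ± 0.18, 0.000632) and Noc2l (0.61 ± 0.17, 0.00973). The members' median was 0.37, against -0.1 over all genes and 0.23 over the genes of at least 20 CPM. In 15 members every KO library lay above every WT library (17.3% of all genes and 36.6% of the genes of at least 20 CPM did so).

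Npm1, the most abundant member per kilobase of exon, did not pass in MPP1 and had lower values in KO. It was at 752, 761 and 738 CPM in WT MPP1 and 711, 694 and 633 CPM in KO MPP1, with each KO library below each WT library (-0.14 ± 0.07, adjusted p 0.174, not called, and the 1 member lower at an unadjusted p below 0.05). Ncl was at 231, 204 and 204 CPM against 261, 244 and 248 CPM (0.24 ± 0.1, 0.116). Nop58, at 95.6, 102 and 98.3 CPM against 84.6, 81 and 106 CPM, had overlapping groups. Noc2l was at 87, 104 and 73.6 CPM against 98.6, 152 and 152 CPM, so its groups overlap too, and its call was lost in 3 of the 6 fits that leave out a library. After background subtraction no member was called higher in MPP1 (2 were at an unadjusted p below 0.05, and 3.2% of all genes and 6.82% of the genes of at least 20 CPM were), and Npm1 was called lower at -0.48 ± 0.06 (adjusted p 1.45e-05), where 2.83% and 5.68% were. Npm1 was also called lower by DESeq2, with median-of-ratios size factors, with a minimum of 20 CPM and with subtraction scaled to exon length. It was not called without the filter on low counts, with the replicate block or in a fit of the 6 MPP1 libraries alone. Erythroid markers summed to between 637 and 659 CPM in WT and between 58.5 and 92.6 CPM in KO MPP1 (6 of 7 tested fell), and granulocyte and monocyte markers to between 164 and 201 against 28.9 to 47.9 CPM (2 of 7 fell). Megakaryocyte markers summed to between 78.1 and 79.4 CPM in WT and between 40.6 and 45.5 CPM in KO (2 of 3 fell), and 1 of 8 stromal and endothelial markers rose. Of 20 G2/M genes 6 fell, and of 20 S-phase genes 1. Their part in the members' values was not tested.

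In libraries labelled MPP2, 8 of 36 members rose (22.2%) and none fell by edgeR or DESeq2. Among all genes 3.73% rose and 4.17% fell, and 8.34% of the genes of at least 20 CPM rose. The 3 with the smallest p were Npm1, Nolc1 and Heatr1. Npm1 was at 927, 917 and 967 CPM in WT against 1220, 1150 and 1120 CPM in KO (0.31 ± 0.07, adjusted p 0.00163). Nolc1 was at 54.9, 70.8 and 62.8 CPM against 99.3, 121 and 128 CPM (0.89 ± 0.2, 0.00175). Heatr1, a factor needed for polymerase I transcription and small-subunit assembly, averaged 59.3 CPM in WT and 108 CPM in KO (0.86 ± 0.21, 0.00431), with its WT and KO libraries apart. The other 5 were Utp20 (0.6), Nop2 (0.68), Noc2l (0.66), Rrp1b (0.47) and Ncl (0.38 on the log2 scale).

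Tcof1 did not follow in MPP2, at 153, 162 and 128 CPM in WT and 142, 188 and 139 CPM in KO, with overlapping groups (0.08 ± 0.16, adjusted p 0.82). The median over members was 0.46, against -0.07 over all genes and 0.07 over the genes of at least 20 CPM. In 22 of 36 members the KO libraries all lay above the WT libraries, as in 11.4% of all genes and 21.3% of the genes of at least 20 CPM. After subtraction Nolc1 (0.75) and Heatr1 (0.77) were the 2 members still called, where 1.63% of all genes and 3.21% of the genes of at least 20 CPM were. The count of 8 rested on single libraries: it was 3 without WT MPP2 replicate 3 and 5 without KO MPP2 replicate 1, and 2 of the 8 calls held in all 6 such fits, while that of Rrp1b held in none. Granulocyte and monocyte markers summed to overlapping ranges, from 1650 to 1790 CPM in WT and from 1730 to 1810 CPM in KO. Erythroid markers ranged from 313 to 344 against 193 to 227 CPM (3 of 7 fell), and 1 of 8 stromal and endothelial markers fell. Their part in the result was not tested.

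In libraries labelled MPP4, 12 of 36 members rose (33.3%) and none fell by edgeR or DESeq2, against 11.4% of all genes and 27.4% of the genes of at least 20 CPM that rose and 6.47% of all genes that fell. The members' share is close to that of the genes of at least 20 CPM. Npm1 was at 714, 673 and 656 CPM in WT and 963, 888 and 962 CPM in KO (0.46 ± 0.07, adjusted p 2.34e-06). Ncl was at 178, 194 and 192 CPM against 325, 279 and 294 CPM (0.67 ± 0.1, 3.69e-06). Tcof1 was at 52.9, 72.8 and 68.7 CPM against 125, 134 and 104 CPM (0.9 ± 0.16, 5.04e-05). All 3 had groups that do not overlap.

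The other 9 risen members in MPP4 were Ubtf, Nop58, Nolc1, Utp20, Pes1, Wdr12, Nop2, Noc2l and Rrp1b, with log2 fold changes from 0.44 (Rrp1b) to 1.29 (Pes1). Of the 6 fits that leave out a library, 5 lost the call of Wdr12, 4 that of Rrp1b and 3 those of Nop2 and Noc2l. The median of the 36 was 0.52, against -0.08 over all genes and 0.3 over the genes of at least 20 CPM. KO libraries lay wholly above WT in 17 members, compared with 16.3% of all genes and 34.5% of the genes of at least 20 CPM. Tcof1 (0.63), Pes1 (1.18) and Ncl (0.3) were called after subtraction, 3 of 36, where 4.48% of all genes and 8.91% of the genes of at least 20 CPM were. Npm1 then stood at 0.08 ± 0.06 (adjusted p 0.516), which does not pass. Erythroid markers summed to between 731 and 814 CPM in WT and between 301 and 371 CPM in KO (5 of 7 fell), granulocyte and monocyte markers to between 130 and 142 against 313 to 369 CPM (3 of 7 rose), megakaryocyte markers to between 183 and 197 against 77.3 to 136 CPM (1 of 3 fell), and 7 of 20 S-phase and 7 of 20 G2/M genes rose. Their part in the members' values was not tested.

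The remaining members of highest level were followed through the progenitors library by library. Polr1a was at 85.9, 126 and 99.4 CPM in WT MPP1 against 129, 135 and 138 CPM in KO MPP1, at 124, 109 and 106 against 143, 166 and 155 CPM in MPP2, and at 96.8, 67.3 and 116 against 150, 105 and 97.1 CPM in MPP4. Its groups overlap in MPP4 alone, and none of the 3 changes passed (log2 fold change 0.37, 0.45 and 0.33). Nop58 was at 104, 132 and 127 CPM in WT MPP2 against 144, 153 and 149 CPM in KO MPP2, and at 96.2, 92.2 and 94.6 against 168, 106 and 137 CPM in MPP4. The KO libraries of Nop58 lay above WT in both, and the MPP4 change (0.54 ± 0.15, adjusted p 0.0108) passed. Nolc1 was at 52, 43.1 and 43.7 CPM in WT MPP1 against 63.2, 56 and 47.6 CPM in KO MPP1, with overlap, and at 62.2, 41.6 and 63.5 against 106, 101 and 112 CPM in MPP4, where it rose by 0.93 ± 0.2. Ncl in MPP2 was at 286, 286 and 277 CPM in WT and 373, 351 and 379 CPM in KO.

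Of the small-subunit pair, Utp20 was at 145, 94.4 and 102 CPM in WT MPP1 against 152, 127 and 139 CPM in KO MPP1, with overlap. It was at 133, 132 and 117 against 202, 202 and 174 CPM in MPP2, and at 127, 94.2 and 101 against 140, 132 and 205 CPM in MPP4, where it rose in both. Wdr43 was at 71.7, 75.3 and 54.9 against 79.6, 93.9 and 62.6 CPM in MPP1, at 88.9, 98.5 and 84.2 against 123, 102 and 141 CPM in MPP2, and at 77.1, 59.1 and 73.5 against 65.2, 88.7 and 66.2 CPM in MPP4. None of the changes of Wdr43 in progenitors passed, and its groups are apart in MPP2 alone. Of the large-subunit pair, Noc2l was at 109, 122 and 101 against 169, 176 and 179 CPM in MPP2 and at 112, 87.6 and 108 against 170, 157 and 116 CPM in MPP4. Rrp1b was at 72.6, 72.7 and 85.4 against 98.6, 106 and 94.1 CPM in MPP1, at 117, 97 and 98.5 against 159, 135 and 140 CPM in MPP2, and at 73.5, 79.6 and 66.3 against 90.9, 92.3 and 115 CPM in MPP4. All 3 KO groups of Rrp1b lay above WT, and the change passed in MPP2 and MPP4 and not in MPP1 (0.37 ± 0.16, adjusted p 0.111).

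The polyamine enzymes parted. Srm was at 22.3, 29.7 and 27.2 CPM in WT MPP1 against 48.1, 55.4 and 33.6 CPM in KO MPP1, at 63, 57.3 and 44.3 against 80.7, 72.1 and 91.5 CPM in MPP2, and at 45.1, 43.2 and 41.3 against 55.5, 64.7 and 74.5 CPM in MPP4. Its KO libraries lay above WT in each population, yet none of these 3 changes passed (adjusted p 0.0571, 0.223 and 0.141). Odc1 was at 29.7, 17.4 and 18.5 against 19.1, 29.6 and 11.4 CPM in MPP1, at 23.1, 17 and 32.2 against 22.1, 31.6 and 15 CPM in MPP2, and at 18.5, 26.5 and 24.3 against 16.4, 15 and 31.2 CPM in MPP4. Its groups overlap in each population, with values of -0.13, -0.07 and -0.15 on the log2 scale.

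Across populations Noc2l was the 1 member called higher in all 4 in the counts as deposited. Ubtf, Tcof1, Nolc1, Utp20, Nop2, Rrp1b, Ncl and Npm1 were called in 3, Nop58, Pes1 and Wdr12 in 2, and 17 members in 1. The 7 called in none were Rrp9, Nop14, Tsr1, Rrp12, Noc3l, Nip7 and Odc1. After subtraction Noc2l was called in HSC alone (edgeR adjusted p 0.448 in MPP1, 0.124 in MPP2 and 0.684 in MPP4). Tcof1 and Ncl were then called in HSC and MPP4, and Nolc1 in HSC and MPP2. Averaged over the 4 populations as deposited, 33 of 36 members were higher in KO and none lower. Of all genes 22.9% were higher and 30.3% lower, and of the genes of at least 20 CPM 51.6% were higher. Noc3l (-0.02 ± 0.19), Nop14 (0.27 ± 0.16) and Odc1 (0 ± 0.21) did not pass. The smallest p belonged to Npm1 (0.44 ± 0.03, adjusted p 3.15e-14), Ncl (0.64 ± 0.05, 8.95e-14) and Tcof1 (0.78 ± 0.08, 7.22e-11), and the largest change to Srm (1.05 ± 0.14). After subtraction 14 members were called higher on average, where 9.6% of all genes and 18.7% of the genes of at least 20 CPM were. In an average chosen after seeing the data, without the MPP2 and MPP4 libraries whose markers go against their labels, 30 of 36 members were higher over HSC and MPP1, against 20.3% of all genes and 47.7% of the genes of at least 20 CPM. After subtraction 9 of 36 were called in that average, where 6.28% of all genes and 12.9% of the genes of at least 20 CPM were.

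**Figure D3:**
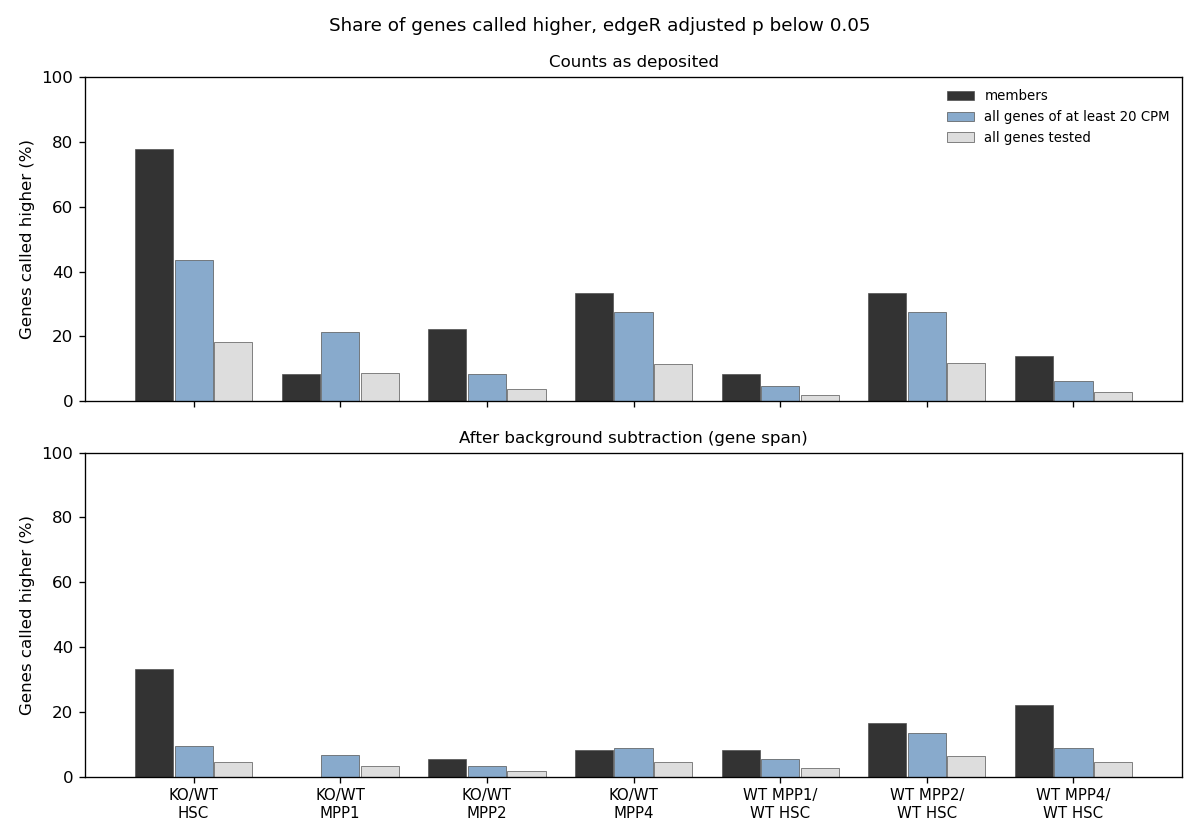
Percent of genes called higher (y axis, from 0 to 100) at an edgeR adjusted p below 0.05 in 7 comparisons (x axis), for the tested members, all genes of at least 20 CPM and all genes tested; the upper panel uses the counts as deposited and the lower panel counts after background subtraction. In HSC the members stand at 77.8% against 43.5% and 18.3% in the upper panel, while in MPP1 they stand below the genes of at least 20 CPM in both panels.

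Whether the KO change differed between populations was tested by the interaction of genotype and population. It passed in 11 of 36 members (30.6%), against 17.7% of all genes and 34.3% of the genes of at least 20 CPM, so the members' share is not above that of genes of similar level. The smallest p belonged to Npm1 (adjusted p 1.34e-12), Ncl (2.54e-06), Tcof1 (0.00033) and Nop58 (0.000399), and the same 4 were called after subtraction, where 6.11% of all genes and 12.5% of the genes of at least 20 CPM were.

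The change in HSC was set against that in MPP1 directly, a comparison added after the values above were seen. HSC had the most members called higher (28) and MPP1 the fewest (3). Choosing these populations favours the members here, so the shares of other genes are no fair measure of an excess. The change was larger in HSC for 9 of 36 members and smaller for none, where 3.92% of all genes and 9.6% of the genes of at least 20 CPM were called larger. These were Npm1 (a difference in log2 fold change of 1.28 ± 0.1, adjusted p 2.75e-13), Ncl (1.01 ± 0.14, 2e-06), Nop58 (1.24 ± 0.22, 9.16e-05), Nolc1, Nop56, Utp4, Gnl3, Srm and Nop2. The members' median difference was 0.57, against -0.24 over all genes and 0.1 over the genes of at least 20 CPM. After subtraction 5 of the 9 were called (Npm1, Ncl, Nop58, Nop56 and Nolc1), where 1.91% of all genes and 4.01% of the genes of at least 20 CPM were. For Myc the same difference was, as deposited, 0.43 ± 0.17 with an adjusted p of 0.105. Fbl, the third box C/D member (0.82 ± 0.41, 0.222), did not pass. Tcof1 (0.58 ± 0.22, 0.0924) and Ubtf (0.31 ± 0.25, 0.489), the 2 members called in MPP1 with groups that do not overlap, did not pass either.

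Among WT libraries each progenitor group was compared with the same 3 WT HSC libraries, so the 3 comparisons share controls. In WT MPP1, 3 members were higher than in WT HSC and none lower, against 1.97% of all genes and 4.61% of the genes of at least 20 CPM higher and 1.83% of all genes lower. They were Npm1 (0.88 ± 0.07, adjusted p 9.3e-13), Ncl (0.61 ± 0.1, 6.56e-05) and Nop58 (0.81 ± 0.16, 6e-04), and all 3 were called after subtraction as well, where 2.71% of all genes and 5.57% of the genes of at least 20 CPM were. Every WT MPP1 library exceeded every WT HSC library for each of them. For Myc the value was -0.17 ± 0.12 (adjusted p 0.732, not called), and the members' median was 0.19 against -0.02 over all genes. Erythroid markers summed to between 637 and 659 CPM in WT MPP1 and between 151 and 168 CPM in WT HSC (7 of 7 were higher), granulocyte and monocyte markers to between 164 and 201 against 36.3 to 65.1 CPM (2 of 7 higher), and megakaryocyte markers to between 78.1 and 79.4 against 193 to 231 CPM (1 of 3 lower). Of 20 S-phase genes 4 were higher and of 20 G2/M genes 5, and the part of these in the result was not tested.

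In WT MPP2, 12 members (33.3%) were higher than in WT HSC and none lower, against 11.7% of all genes and 27.6% of the genes of at least 20 CPM higher and 7.37% of all genes lower. The members' share is close to that of the genes of at least 20 CPM. Npm1 (1.2 ± 0.07, adjusted p 5.57e-18), Ncl (1.03 ± 0.1, 1.45e-10) and Tcof1 (1.15 ± 0.16, 3.24e-07) had the smallest p. Nop58, Nop56, Nolc1, Dkc1, Ubtf, Utp4, Wdr43, Gnl3 and Srm made up the rest. After subtraction 6 were called (Npm1, Ncl, Nop58, Tcof1, Nolc1 and Gnl3), where 6.53% of all genes and 13.5% of the genes of at least 20 CPM were. Myc was higher there by 0.95 ± 0.12 (5.21e-08), and 17 of 20 S-phase and 17 of 20 G2/M genes were higher as well. Granulocyte and monocyte markers summed to between 1650 and 1790 CPM in WT MPP2 against 36.3 to 65.1 CPM in WT HSC (2 of 7 higher), erythroid markers to between 313 and 344 against 151 to 168 CPM (3 of 7 higher), and megakaryocyte markers to between 37.4 and 41.8 against 193 to 231 CPM (2 of 3 lower). Of the mature lymphocyte markers 2 of 8 were higher, as were 2 of 8 stromal and endothelial markers, and the part of all these in the result was not tested. The call of Dkc1 was lost in 5 of the 6 fits that leave out a library.

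In WT MPP4, 5 members were higher and none lower: Npm1 (0.74 ± 0.07, adjusted p 2.68e-11), Nop58 (0.75 ± 0.16, 6e-04), Ncl (0.44 ± 0.1, 0.00245), Nolc1 (0.84 ± 0.2) and Srm (0.92 ± 0.29). Of all genes 2.91% were higher and 7.43% lower, and of the genes of at least 20 CPM 6.33% were higher. Here subtraction raised the count to 8 by adding Polr1b, Utp4 and Bop1, where 4.46% of all genes and 8.91% of the genes of at least 20 CPM were called. Myc was higher by 0.57 ± 0.12 (0.000694). The call of Srm was lost in 5 of the 6 fits that leave out a library. Erythroid markers summed to between 731 and 814 CPM in WT MPP4 against 151 to 168 CPM in WT HSC (7 of 7 higher), and granulocyte and monocyte markers to between 130 and 142 against 36.3 to 65.1 CPM (2 of 7 higher). Of the mature lymphocyte markers 2 of 8 were higher, and 10 of 20 S-phase and 14 of 20 G2/M genes were too. Their part in the result was not tested.

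The members' summed share of all counts put these changes on 1 scale, as a description with no test. It was 0.196 ± 0.00252% (SD, n = 3) in WT HSC, 0.26 ± 0.00404% in WT MPP1, 0.282 ± 0.00529% in WT MPP2 and 0.28 ± 0.00436% in WT MPP4. In KO it was 0.327 ± 0.007% in HSC, 0.273 ± 0.00451% in MPP1, 0.365 ± 0.0107% in MPP2 and 0.353 ± 0.0176% in MPP4. On this scale KO HSC lay above each of the WT progenitor groups. With the estimated background removed from the members and from the total, the share was 0.236 ± 0.00681% in WT HSC and 0.343 ± 0.00693% in KO HSC. In MPP1 it was 0.325 ± 0.00513% in WT and 0.308 ± 0.00503% in KO, so the order of the genotypes turned there, and the 2 groups do not overlap. In MPP2 it was 0.311 ± 0.00569% against 0.397 ± 0.00917%, and in MPP4 0.379 ± 0.00608% against 0.42 ± 0.0219%. KO HSC then lay below WT MPP4 and above WT MPP1 and WT MPP2. Npm1 and Ncl have the highest counts of the members, so they weigh most in this sum.

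**Figure D4:**
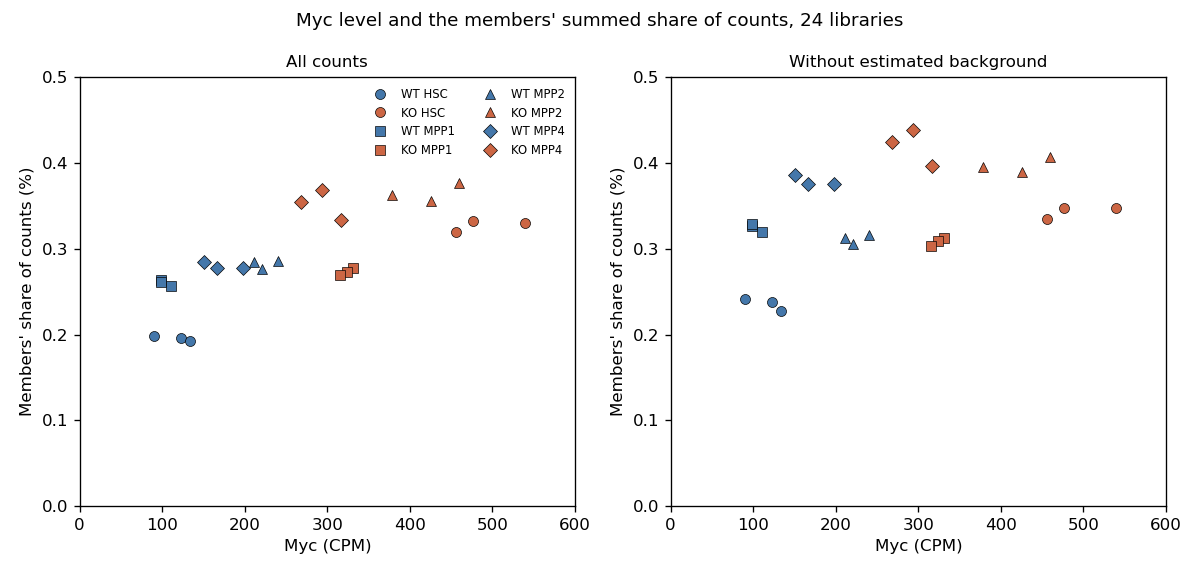
Members' summed share of counts in percent (y axis, from 0) against the level of Myc in CPM as deposited (x axis, from 0) in each of the 24 libraries, with all counts on the left and with the estimated background removed from the share on the right; blue is WT, orange is KO, and the marker shape gives the labelled population. KO MPP1 has Myc at 315 to 331 CPM and a share with all counts of 0.269 to 0.278%, below the share of KO HSC, KO MPP2 and KO MPP4.

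Over the 8 group means of log2 CPM, Pearson's r of a member with Myc had a median of 0.85 and was above 0.7 in 31 of 36 members (86.1%), compared with 14.4% of all genes and 31.8% of the genes of at least 20 CPM. Mybbp1a, Noc2l and Bms1 were highest at 0.96, and Odc1 (0.12) and Noc3l (0.29) lowest. Npm1 was at 0.67. These 8 points share libraries and the background that falls with genotype, so r is a description of the groups and carries no test. Pairs of members had a median r of 0.75 over the same means, and pairs of genes of at least 20 CPM that are no member 0.23.

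The other genes of the pathway were taken from a list of 109 ribosome biogenesis genes, of which 108 were found and tested. In KO HSC 52 of them (48.1%) were higher and none lower, a share close to the 43.5% of the genes of at least 20 CPM, with a median of 0.66. DESeq2 called 40 higher, where 14.6% of all genes and 34.5% of the genes of at least 20 CPM were. By DESeq2 1 gene (Rpf2) was lower at an unadjusted p below 0.05 and none at the adjusted threshold. After subtraction 7 of 107 were higher (6.54%, against 4.42% of all genes and 9.52% of the genes of at least 20 CPM), with a median of 0.26. Taf1d, a subunit of the polymerase I selectivity factor (1.66 ± 0.14, adjusted p 5.44e-13), Nol6 (1.51 ± 0.21, 2.17e-07) and Wdr46 (1.71 ± 0.28, 4.04e-06) had the smallest p as deposited, and all 3 were among the 7.

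In KO MPP1 7 of the 108 were higher (6.48%), led by Taf1d (1.13), Nol6 (0.9) and Mdn1 (0.52). In MPP2 4 were higher (3.7%), led by Utp14a (1.12), Nmd3 (0.81) and Nol10 (0.51), and in MPP4 13 (12%), led by Taf1d (1), Nol6 (1.16) and Nob1 (1.42). These shares are near or below the 8.71, 3.73 and 11.4% of all genes and are not a result about the list. None was lower in the 3 populations by edgeR. At an unadjusted p below 0.05, 2 were lower in MPP1 (Ddx55 and Rsl24d1), 1 in MPP2 (Nop53) and 1 in MPP4 (Efl1), and DESeq2 called those same 4. After subtraction 1, 1 and 4 of 107 were higher in MPP1, MPP2 and MPP4, where 3.2, 1.63 and 4.48% of all genes were. These counts are not a result about the list either. Nop53 in MPP2 and Efl1 in MPP4 were then called lower, where 3.08 and 2.86% of all genes were. The interaction passed in 5 of 108 (4.63%), led by Taf1d, below the 17.7% of all genes and 34.3% of the genes of at least 20 CPM. After subtraction it passed in Taf1d alone, where 6.11% of all genes were called.

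In WT progenitors 4, 20 and 6 of the 108 were higher than in WT HSC in MPP1, MPP2 and MPP4 (3.7, 18.5 and 5.56%, against 1.97, 11.7 and 2.91% of all genes and 4.61, 27.6 and 6.33% of the genes of at least 20 CPM). After subtraction the counts were 4, 5 and 7 of 107. Of all genes 2.71, 6.53 and 4.46% were then called higher, and of the genes of at least 20 CPM 5.57, 13.5 and 8.91%. In MPP4 2 were lower as deposited (1.85%, against 7.43% of all genes), Rrp1 (-0.79 ± 0.24) and Gnl3l (-0.67 ± 0.21). Neither was called by DESeq2 or after subtraction.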

How the data were processed

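Raw read counts per gene were deposited by the authors as a table of 24 libraries. The submitters' processing notes name SAMtools 1.12, DESeq2 and the mouse build mm39. The aligner, the counter and its strand setting are not given in the sources used here. Per the labels' protocols, total RNA was made into libraries with a kit for Illumina sequencing. Columns were joined to samples by the column name in each sample's description, and 0 columns lacked a sample. The members and gene lists were chosen with earlier results of these data known.

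Genes passing edgeR's filterByExpr (21964 of 56748) were tested with edgeR 4.0.16 in R 4.3.3 (TMM scaling, quasi-likelihood test, 1 model with 8 group means, residual degrees of freedom 16, common BCV, the biological coefficient of variation, 0.393), with Benjamini-Hochberg adjustment over all genes tested and a threshold of 0.05. CPM values use TMM library sizes. The members are set beside all genes and beside the 8510 genes that averaged 20 CPM or more. The background was estimated from 1770 olfactory and vomeronasal receptor genes, per kilobase of gene span in GENCODE M21, to which 91.9% of gene IDs matched, and subtracted before a second fit. On simulated counts for the HSC comparison (21964 genes), the test recovered 31 of 32 genes of at least 20 CPM set to a 3-fold change and 7 of 38 set to 1.5-fold, and 2.17% of calls were false. Only 99 genes were set to 3-fold and 93 to 1.5-fold there, while 43.1% of genes were called in the HSC data. The adjusted threshold was therefore stricter in the simulation, and its figures do not give recovery or false calls in the data.

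Values in every library are given for Myc and for the 2 members of each role with the highest mean CPM. In each comparison the 3 called members with the smallest p in each direction are named with fold, SE and adjusted p, as are the 4 smallest interaction p and the 3 smallest p of the other ribosome biogenesis genes. Further members are named by value to account for all 38. Alternatives were other size factors, no filter, a filter of 20 CPM in 3 libraries, both forms of the subtraction, DESeq2 1.42.0, a fit on 6 libraries, leaving out each library, and the replicate number as a block.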

Additional observations from a re-analysis of the deposited data

Results flagged for a closer look

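The change between KO and WT differed between populations, by the interaction test in edgeR with adjustment over all genes, for Myc (adjusted p 6.21e-08) and 11 members. That is 30.6% of tested members, against 17.7% of all genes and 34.3% of the genes of at least 20 CPM. The members' share is thus not above that of genes of similar level. The 11 were Npm1 (1.34e-12), Ncl (2.54e-06), Tcof1 (0.00033), Nop58 (0.000399), Srm (0.00282), Nop56 (0.00529), Nolc1 (0.0104), Utp4 (0.0133), Gnl3 (0.0309), Noc2l (0.0423) and Nop2 (0.0492). Of 24 fits that leave out a library, 17 lost the call of Nop2, 11 that of Noc2l, 9 that of Gnl3 and 1 that of Utp4. After subtraction 4 members were called: Npm1, Ncl, Tcof1 and Nop58. For Npm1 the log2 fold change was 1.14 in HSC, 0.31 in MPP2 and 0.46 in MPP4, with -0.14 in MPP1, and it was not called in the last. For Tcof1 it was 1.36 in HSC and 0.08 in MPP2. Groups of 3 libraries are too small for a search for single libraries that stand apart.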

How the results depend on the processing

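No member's called direction reversed under any alternative tried. Background subtraction by gene span changed the counts of members called higher most: 12 in place of 28 in HSC, 0 in place of 3 in MPP1, 2 in place of 8 in MPP2, 3 in place of 12 in MPP4, 14 in place of 33 on average, 4 in place of 11 for the interaction, and 6 in place of 12 for WT MPP2 against WT HSC. Subtraction by exon length left 25 in HSC, where 15.4% of all genes and 34% of the genes of at least 20 CPM were called higher. Subtraction by gene span also shifted Npm1, a member with little estimated background, from 1.14 to 0.59 in HSC. Lost calls therefore do not measure background within the members' own counts. In comparisons chosen after seeing the data, the average over HSC and MPP1 had 9 members higher with subtraction in place of 30, and the KO change in HSC set against MPP1 had 5 called in place of 9. For WT MPP4 against WT HSC the count of 5 became 8 with either subtraction, 9 with median-of-ratios size factors, 10 with the filter of 20 CPM in 3 libraries and 12 with DESeq2. Of the genes of at least 20 CPM, 8.91% were called higher with subtraction by gene span and 7.26% by exon length. With the other settings, in the order named, 10.1, 10.4 and 12.7% were. Of all genes these shares were 4.46, 3.57, 4.55, 9.03 and 6.06%. The count of 12 in KO MPP4 became 6 with median-of-ratios size factors, with DESeq2 and with only the 6 libraries compared. In that order, 6.92, 8.1 and 7.71% of all genes and 16.7, 18.9 and 15.6% of the genes of at least 20 CPM were called higher. The members' share was then close to that of the genes of at least 20 CPM. In MPP1, fitting only 6 libraries gave 5 higher, where 12.9% of all genes and 24.2% of the genes of at least 20 CPM were. The members' share is near that over all genes. With median-of-ratios size factors, the filter of 20 CPM, both subtractions and DESeq2, 1 member (Npm1) was called lower in MPP1. Under these settings 2.83 to 14.3% of all genes were called lower. For WT MPP1 against WT HSC DESeq2 called 5, where 3.02% of all genes and 7.18% of the genes of at least 20 CPM were called higher. Median-of-ratios size factors moved the median log2 fold change of all genes in HSC from -0.31 to -0.46 and the members' from 1.03 to 0.88. They also moved the shares of all genes called higher and lower from 8.71 and 4.9% to 6.47 and 5.92% in MPP1, from 11.4 and 6.47% to 6.92 and 8.77% in MPP4, and from 2.91 and 7.43% to 4.55 and 5.65% for WT MPP4 against WT HSC. The cause of these differences was not tested.

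Leaving out each library in turn gave 24 to 26 members higher in HSC, 2 to 4 in MPP1, 3 to 7 in MPP2, 8 to 13 in MPP4, 30 to 33 on average and 7 to 12 for the interaction (7 without WT HSC replicate 1), and 3, 9 to 12 and 4 to 5 for the WT progenitors MPP1, MPP2 and MPP4 set against their HSC, with 0 lower throughout. Replicate numbers showed no likeness between libraries: the 84 same-numbered pairs had a median correlation of 0 and none was above 0.1, as in the 168 other pairs. Whether same-numbered libraries share an animal or a day is not stated and cannot be told from these correlations. With the number as a block the counts were 27, 3, 7 and 11 in HSC, MPP1, MPP2 and MPP4, 33 on average and 10 for the interaction. Of all genes, 18.1, 8.64, 3.67 and 11.3% were then called higher in those populations and 22.7% on average. Limits are the depth and the background estimate, which assumes reads spread evenly over gene span. The effect of depth on recovery is not known, because few genes were set to change in the simulated counts.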
